A study of Mus musculus with 6 samples.

Results

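The ERK feedback genes were followed in Mvt1 mouse mammary carcinoma cells that had been sorted by surface CD24. They were chosen by name, as 10 genes of 4 families: the phosphatases Dusp4, Dusp5 and Dusp6, the Sprouty genes Spry1, Spry2 and Spry4, the Spred genes Spred1 and Spred2, and the transcription factors Etv4 and Etv5. Earlier results of these data were known when these genes, and the lists set beside them below, were chosen. All 10 were among the 14769 gene annotations in the deposited counts, and all 10 were among the 11125 genes with enough reads to be tested. Mvt1 is an epithelial line of the FVB/N strain that was grown from a mammary tumor of mice carrying Myc and Vegf transgenes under the MMTV promoter. Cells without CD24 on their surface (CD24-) and cells with it (CD24+) were separated by FACS and grown as adherent cultures in DMEM with fetal bovine serum, with no further treatment. Each group gave 3 libraries, 1 per plate. The plates are not described as separate sorts, so the p-values measure the spread between plates, and a difference tied to CD24 cannot be told apart from another that arose between the sorted groups.

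In the ERK pathway, a ligand-bound receptor tyrosine kinase activates RAS, which drives the kinases RAF, MEK and ERK in turn. Active ERK induces a small set of genes whose products act back on the pathway. The Dusp phosphatases remove phosphate from ERK and related kinases, the Sprouty proteins act between the receptor and RAF, and the Spred proteins bring neurofibromin to RAS at the membrane. Etv4 and Etv5 are ETS transcription factors of the PEA3 group that are switched on by FGF signalling. Transcripts of these genes are widely read as a record of ERK output, and ERK activity itself was not measured here.

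The 6 libraries held 9046025 to 25692147 mapped reads, of which 71.8% to 74.3% were annotated to a gene. CD24+ replicate 1 was the shallowest. Values are given as CPM, the count relative to a library's gene reads with edgeR's TMM scaling. Cd24a, the gene of the sorted marker, had 10.2 ± 2.79 CPM in CD24- plates and 77.1 ± 7.31 CPM in CD24+ plates (SD, n = 3 each). This was a log2 fold-change of 2.91 (edgeR adjusted p = 5.387e-07). The epithelial markers of the line were uneven. Krt8 and Krt18 were abundant, whereas Cdh1 had 2 reads, Epcam 6 and Elf5 none over all libraries. The summed CPM of 8 mammary epithelial markers lay between 1857 and 2049 in CD24- cells and between 777.6 and 921.8 in CD24+ cells. Only 4 of them had enough reads to be tested. Of these, 1 was higher and 3 lower, beside 23.8% and 22.3% of all genes tested. The sum of 7 leukocyte genes lay between 46.65 and 80.54 in CD24- cells and between 7.17 and 9.438 in CD24+ cells, nearly all of it Cd68, with Itgam at 3.84 CPM and 0.017 CPM, respectively. The defining leukocyte gene Ptprc had 2 reads, and Cd3e and Adgre1 had none. Basal markers summed to 0.3156 to 1.042 CPM and 6.605 to 14.09 CPM, mostly from Acta2 (0.55 and 8.01 CPM), the only 1 of them tested. Trp63 had 0.095 and 1.16 CPM, and Krt5, Krt14, Krt17 and Myh11 had 1, 3, 2 and 6 reads over all libraries. Endothelial markers summed to 2.254 to 3.98 CPM and 0.681 to 1.888 CPM. The part of these markers in the results below was not tested. In such bulk libraries, fewer cells expressing a gene and less RNA per cell cannot be told apart.

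Of the 10 feedback genes, 2 were higher in CD24+ cells (Spry1 and Spred1), 5 were lower (Dusp4, Dusp5, Spry2, Spry4 and Etv5) and 3 did not pass the test (Dusp6, Spred2 and Etv4), by edgeR's quasi-likelihood test with Benjamini-Hochberg adjustment at 0.05. Over all tested genes 46.1% were called, 23.8% as higher and 22.3% as lower, so changes are frequent in this comparison. CD24- and CD24+ values did not overlap for 8 of the 10 genes, beside 57.3% of all genes tested. The median log2 fold-change of the 10 genes was -0.27, beside 0.016 over all genes. The changes ran from a 10.5-fold increase of Spry1 to a 3.65-fold decrease of Dusp5. Spry1 was called in the opposite direction to Spry2 and Spry4, and no other of the 4 families held calls in both directions.

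**Figure D1:**
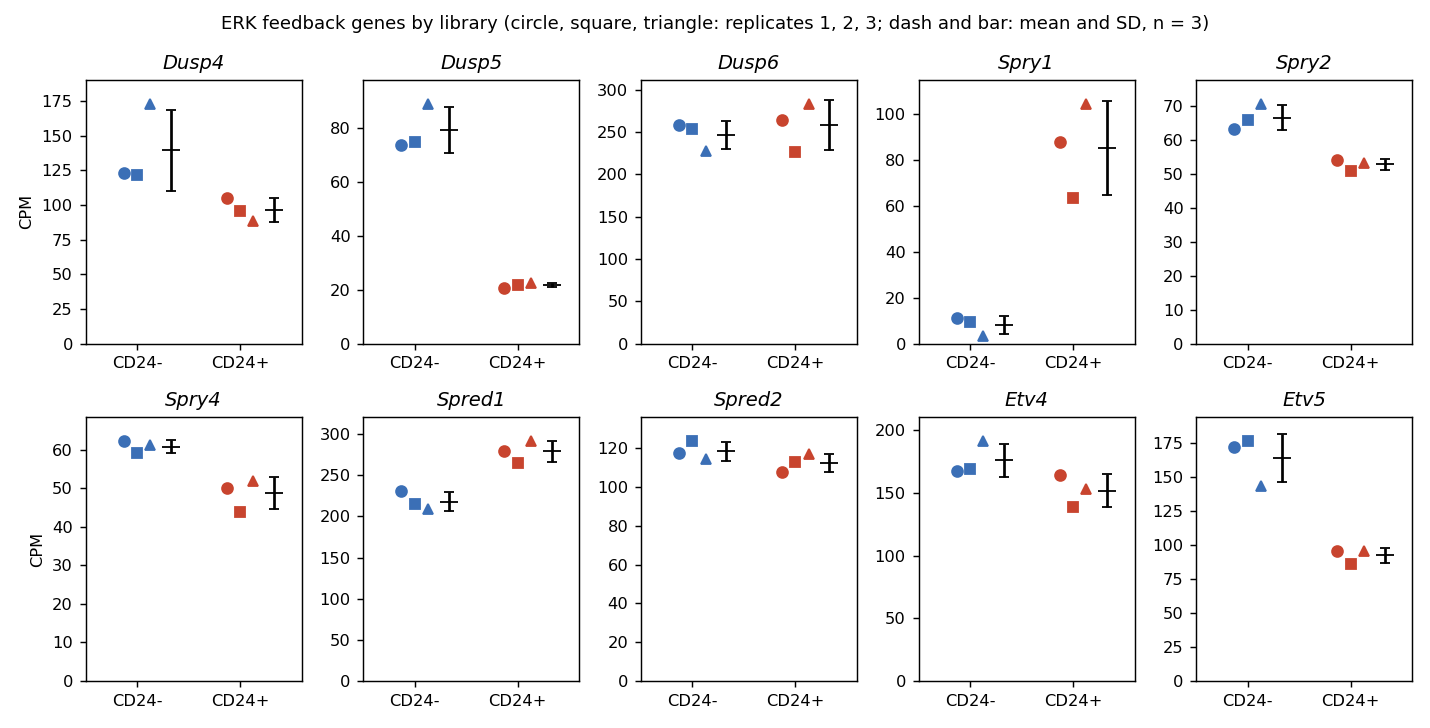
CPM of each of the 10 ERK feedback genes (y axis, starting at 0) in the 3 CD24- and 3 CD24+ libraries, with markers for replicates 1, 2 and 3 and the mean ± SD beside them (n = 3). Spry1 lies between 3.49 and 11.3 CPM in CD24- cells and between 63.5 and 104.3 CPM in CD24+ plates, Dusp5 has at least 73.8 CPM in each CD24- library and at most 22.4 CPM in each CD24+ library, and the values of Dusp6 and Spred2 overlap.

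The genes that moved furthest are shown with the sequence that was read most often inside their coding part, since the deposited counts are counts of such 47-nt sequences. Sequences that also match another gene were left out of this choice. Dusp6, the most abundant of the 10 per kb of transcript, is shown with them. The sequences are written in the direction of the transcript, in lower case throughout, with mm9 positions.
Spry1, chr3:37541903-37541949, exon: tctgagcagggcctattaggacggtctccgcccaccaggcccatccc
Dusp5, chr19:53612020-53612066, exon: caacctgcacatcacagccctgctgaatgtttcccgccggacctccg
Dusp6, chr10:98727447-98727493, exon: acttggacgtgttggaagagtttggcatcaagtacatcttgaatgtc

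The Spry1 sequence was read 1, 0 and 0 times in CD24- replicates 1 to 3 and 3, 4 and 12 times in CD24+ replicates 1 to 3. The Dusp5 sequence was read 5, 1 and 3 times in CD24- plates and 1, 2 and 4 times in CD24+ cells, in which libraries 2 and 3 were deeper. The Dusp6 sequence was read 8, 17 and 8 times and 12, 20 and 21 times, respectively. These are unscaled counts of single sequences, and each gene's level is the sum over many of them. The sum held 3909 reads for Spry1, 3229 for Dusp5 and 18265 for Dusp6 over the 6 libraries.

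Dusp6 encodes a cytoplasmic phosphatase that acts with high selectivity on ERK. It lies on chromosome 10 of GRCm38 from 99263231 to 99267489. Its level was 258.6, 254 and 228 CPM in CD24- replicates 1 to 3 and 264.7, 226.4 and 283.4 CPM in CD24+ replicates 1 to 3. The groups overlapped, and the highest and the lowest value were both from CD24+ cells. The log2 fold-change was 0.06 with a 95% interval from -0.15 to 0.28 (edgeR adjusted p = 0.6197), and its sign turned without CD24+ replicate 3 (-0.023).

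Dusp5 encodes a phosphatase that acts on ERK in the nucleus and lies on chromosome 19 from 53529109 to 53542431. It had 73.85, 74.76 and 89.02 CPM in CD24- plates and 20.76, 21.91 and 22.42 CPM in CD24+ plates. The CD24+ values were close together and all were far under the lowest CD24- value. Dusp5 was therefore 3.65-fold lower in CD24+ cells (log2 fold-change -1.86, standard error 0.10, edgeR adjusted p = 4.057e-07), and with each library left out in turn the log2 fold-change stayed between -1.91 and -1.77. Of the 3229 reads, 58.0% matched no GENCODE transcript of Dusp5, and all of these lay inside the gene. In contrast, 58.2% of the reads that matched its transcript carried no annotation in the deposited files, in which no annotated read lay wholly in an untranslated region of Dusp5. Counted from reads that match the transcript of Dusp5 and of no other gene, it had 70.9 ± 11.96 CPM in CD24- plates and 23.9 ± 1.04 CPM in CD24+ plates (SD, n = 3 each), with a log2 fold-change of -1.57. An antisense gene overlaps Dusp5 and shares 184 of the reads that match the Dusp5 transcript, and the library kit does not mark strand. For the reads that match no transcript of Dusp5, sharing with that gene was not counted.

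Dusp4 encodes a nuclear phosphatase that acts on ERK and on stress-activated kinases. It had 123.4, 122 and 173.2 CPM in CD24- plates and 105.2, 95.58 and 88.42 CPM in CD24+ plates. The groups did not overlap, and CD24- replicate 3 stood well above the other libraries. The log2 fold-change was -0.54 (standard error 0.14, edgeR adjusted p = 0.00837) and became -0.35 without that replicate, where the gene was still called.

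Spry1 is a Sprouty gene, an inhibitor of receptor tyrosine kinase signalling that FGF induces in many tissues, and lies on chromosome 3 from 37639947 to 37644598. It had 11.26, 9.476 and 3.493 CPM in CD24- plates and 87.46, 63.46 and 104.3 CPM in CD24+ plates. These CD24- values rest on 107, 100 and 31 reads. Even the lowest CD24+ value was far above the highest CD24- value. Spry1 was 10.5-fold higher in CD24+ cells (log2 fold-change 3.38, standard error 0.30, 95% interval 2.70 to 4.06, edgeR adjusted p = 1.045e-05) and ranked 317th of the 11125 tested genes by the size of its log2 fold-change. It was also the most variable of the 10 between plates, with a coefficient of variation of 50.4% in CD24- plates and 24.1% in CD24+ cells. Without CD24- replicate 3, where it was lowest, the log2 fold-change was 3.04. On quantile-normalized CPM plus 10 the log2 fold-change was 2.36. The study also used quantile normalization and added 10, but to the median coverage of a gene and not to CPM of summed reads. An antisense gene overlaps Spry1 and shares 142 of the reads that match the transcripts of Spry1. The increase held on reads that match Spry1 alone, at 3.33.

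Spry2 and Spry4 are Sprouty genes of the same function, and both were slightly lower in CD24+ cells. Spry2 had 63.33, 65.86 and 70.77 CPM in CD24- plates and 54.27, 50.87 and 53.38 CPM in CD24+ plates. Its log2 fold-change was -0.34 (standard error 0.084, edgeR adjusted p = 0.007982), with no overlap between the groups. Spry4 had 62.28, 59.13 and 61.19 CPM in CD24- plates and 50.18, 43.98 and 51.96 CPM in CD24+ plates. The Spry4 values did not overlap either, but the call was close to the threshold (log2 fold-change -0.32, edgeR adjusted p = 0.01555). It was lost without CD24- replicate 1 (adjusted p = 0.06153), without CD24+ replicate 2 (adjusted p = 0.05069) and where each distinct sequence was counted once (adjusted p = 0.116).

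Because levels of different genes can be compared only per length, reads that match a single GENCODE gene were divided by the number of kb of transcript at which such a read can start. On this scale the 3 Sprouty genes summed to 49.0 ± 1.30 CPM per kb in CD24- plates and 66.8 ± 8.51 CPM per kb in CD24+ plates (SD, n = 3 each). The make-up of that sum changed. Spry1 gave 8.47%, 6.767% and 2.506% of it in the CD24- libraries and 44.08%, 37.7% and 48.79% in the CD24+ libraries, and Spry2 went from 67.9% ± 3.77 to 41.2% ± 4.95. The share of Spry4 went from 26.2% ± 1.19 to 15.2% ± 0.67. The groups did not overlap for any of these shares, and an exact two-sided permutation test gave 0.1 for each, the smallest p that 3 libraries against 3 allow. The shares are parts of the same sum, so a rise of Spry1 by itself lowers those of Spry2 and Spry4. They are therefore not 3 separate results. Few reads covered the start of the Spry1 reference transcript, so its level per kb and its share may be understated.

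**Figure D2:**
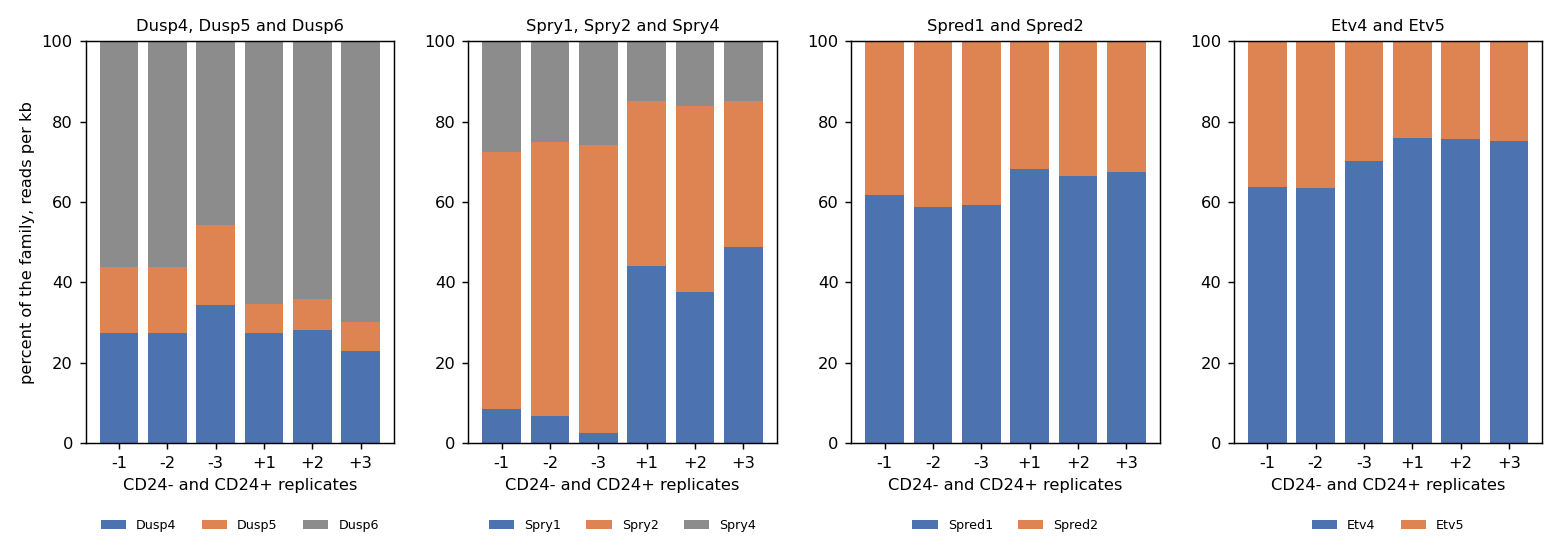
Share of each member in its family (y axis, percent of the family's CPM per kb, stacked to 100) in CD24- replicates 1 to 3 (-1 to -3) and CD24+ replicates 1 to 3 (+1 to +3). Spry1 makes up at most 8.47% of the Sprouty sum in CD24- cells and at least 37.7% in CD24+ cells, while the shares within the other families move less. The share of Etv5 is understated, since reads that it shares with Gm4798 were left out. The share of Spry1 may be understated, since few reads covered the start of its reference transcript.

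Spred1, whose product is lost in Legius syndrome and which holds RAS in check together with neurofibromin, was higher in CD24+ cells. It had 230.5, 214.7 and 208.5 CPM in CD24- plates and 279.7, 265.5 and 291.6 CPM in CD24+ plates. All CD24+ values lay above all CD24- values, and the difference was small (log2 fold-change 0.36, standard error 0.078, edgeR adjusted p = 0.004011). Where each distinct sequence was counted once it was 0.23 and no longer called (adjusted p = 0.1266). Spred2 had 117.3, 123.7 and 114.2 CPM in CD24- plates and 107.6, 113.1 and 116.8 CPM in CD24+ plates. Its groups overlapped (log2 fold-change -0.07, 95% interval -0.24 to 0.10, edgeR adjusted p = 0.4652). The deposited annotation left 29.6% of the reads on the Spred1 transcript and 26.5% of those on the Spred2 transcript without a gene, and on reads that match each of them alone the log2 fold-changes were 0.40 and -0.07. Spred1 made up 60.0% ± 1.51 of the pair per kb in CD24- plates and 67.4% ± 0.97 in CD24+ cells.

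Etv5 was lower in CD24+ cells. It had 171.6, 176.2 and 143.3 CPM in CD24- plates and 95.32, 85.59 and 95.6 CPM in CD24+ plates. No CD24+ value reached the lowest CD24- value, and the log2 fold-change was -0.83 (standard error 0.097, edgeR adjusted p = 6.646e-05). Of the reads on its transcript, 2511 also match the processed pseudogene Gm4798, and the reads unique to Etv5 gave -0.77. Etv4, a regulator of mammary branching and of invasion in carcinoma models, had 167.9, 169 and 191.5 CPM in CD24- plates and 164.2, 138.5 and 153.1 CPM in CD24+ plates. The groups lay next to each other without overlap, and the difference did not pass the test (log2 fold-change -0.22, 95% interval -0.42 to -0.01, edgeR adjusted p = 0.07687). Without TMM scaling it passed narrowly (adjusted p = 0.04587). Reads that match Etv4 transcripts alone overlapped between the groups and gave -0.08.

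The reads were then split by where they lie, a split chosen after seeing the data. For Etv4, reads inside the coding sequence had 72.17, 76.85 and 83.39 CPM in CD24- plates and 86.36, 66.34 and 74.17 CPM in CD24+ plates, a log2 fold-change of -0.04. Its annotated reads that match no transcript, of which 99.9% lie inside the gene, had 32.82, 32.03 and 38.54 CPM and 12.58, 20.1 and 19.9 CPM, a log2 fold-change of -0.93 (edgeR adjusted p = 9.746e-04). Hence there were 44.5 ± 2.44 such reads per 100 coding reads in CD24- plates and 23.9 ± 8.26 in CD24+ plates (SD, n = 3 each, exact permutation p = 0.1). The difference between these read classes was not tested in a model of its own. For Dusp5 both classes were lower in CD24+ cells, by a log2 fold-change of -1.46 inside the coding sequence and -2.17 outside the transcript. There were 173.1 ± 22.8 reads outside the transcript per 100 coding reads of Dusp5 in CD24- plates and 104.7 ± 43.1 in CD24+ plates, without overlap (exact permutation p = 0.1, n = 3 each). For Spry1 both classes were higher, at 3.04 and 4.23, but the latter rests on 2, 2 and 1 reads in the CD24- libraries. Its reads outside the transcript per 100 coding reads were 4.12 ± 0.998 and 9.07 ± 2.86, also without overlap (exact permutation p = 0.1, n = 3 each). Dusp6 had few reads outside its transcript, 3.42 ± 1.38 CPM in CD24- plates and 7.50 ± 2.49 CPM in CD24+ plates, and these were higher in CD24+ cells (log2 fold-change 1.19, edgeR adjusted p = 0.01022). Per 100 coding reads they were 5.03, 2.19 and 3.38 in the CD24- libraries and 4.64, 8.40 and 9.04 in the CD24+ libraries, and these overlapped (exact permutation p = 0.2, n = 3 each). This ratio overlapped between the groups for the 7 genes other than Etv4, Dusp5 and Spry1. How often it is free of overlap among all tested genes was not counted. CD24+ replicate 1, the shallowest library, had the lowest ratio of all libraries for Dusp5 (63.3), Dusp4 (26.4), Etv4 (14.6), Spry2 (14.5) and Etv5 (4.02). The same library had the highest ratio for Spry4 (35) and lay between the others for the remaining genes. The part of this library in the differences above was not tested.

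**Figure D3:**
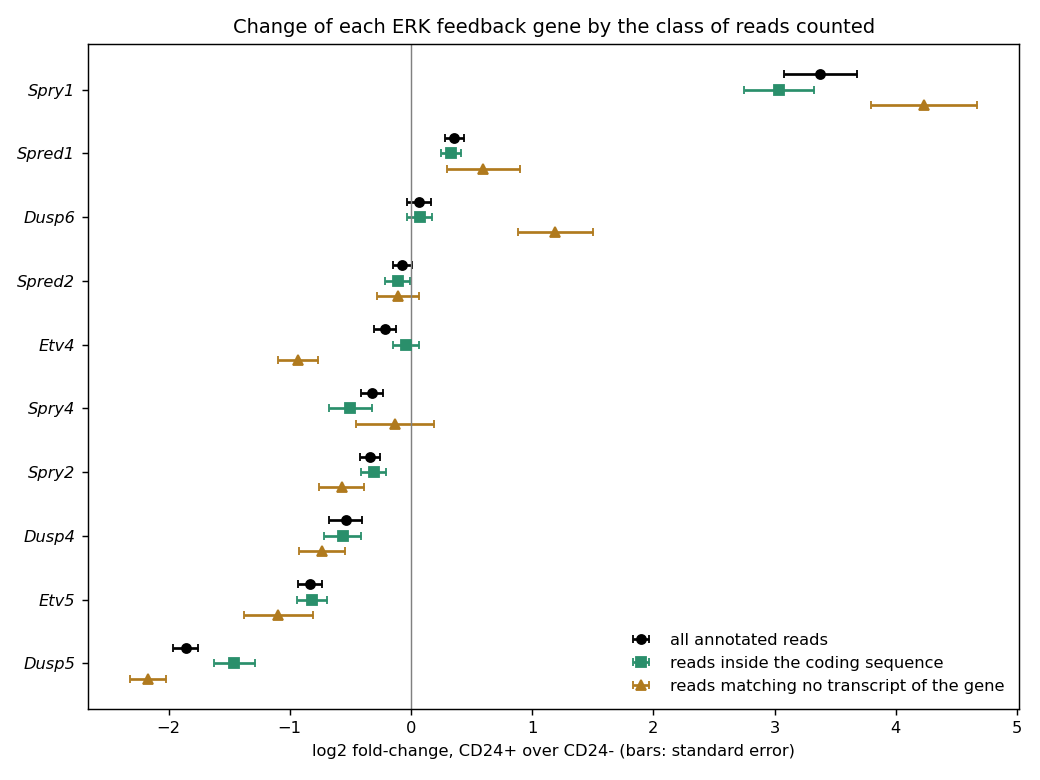
Log2 fold-change of CD24+ over CD24- cells (x axis, bars are standard errors) for each ERK feedback gene from all annotated reads (black circles), reads inside the coding sequence (green squares) and annotated reads that match no transcript of the gene (brown triangles). The 3 classes lie on the same side of 0 for each gene, and the values from coding reads and from reads outside the transcript lie furthest apart for Spry1 (3.04 and 4.23), Dusp6 (0.07 and 1.19) and Etv4 (-0.04 and -0.93).

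Along the transcript, the difference of Spry1, Dusp5 and Etv5 did not come from a single stretch. Reads of Spry1 fell mainly in the coding sequence (44.5% of its annotated reads) and the 3′ untranslated region (43.2%), and few reads covered the start of the reference transcript in either group.

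**Figure D4:**
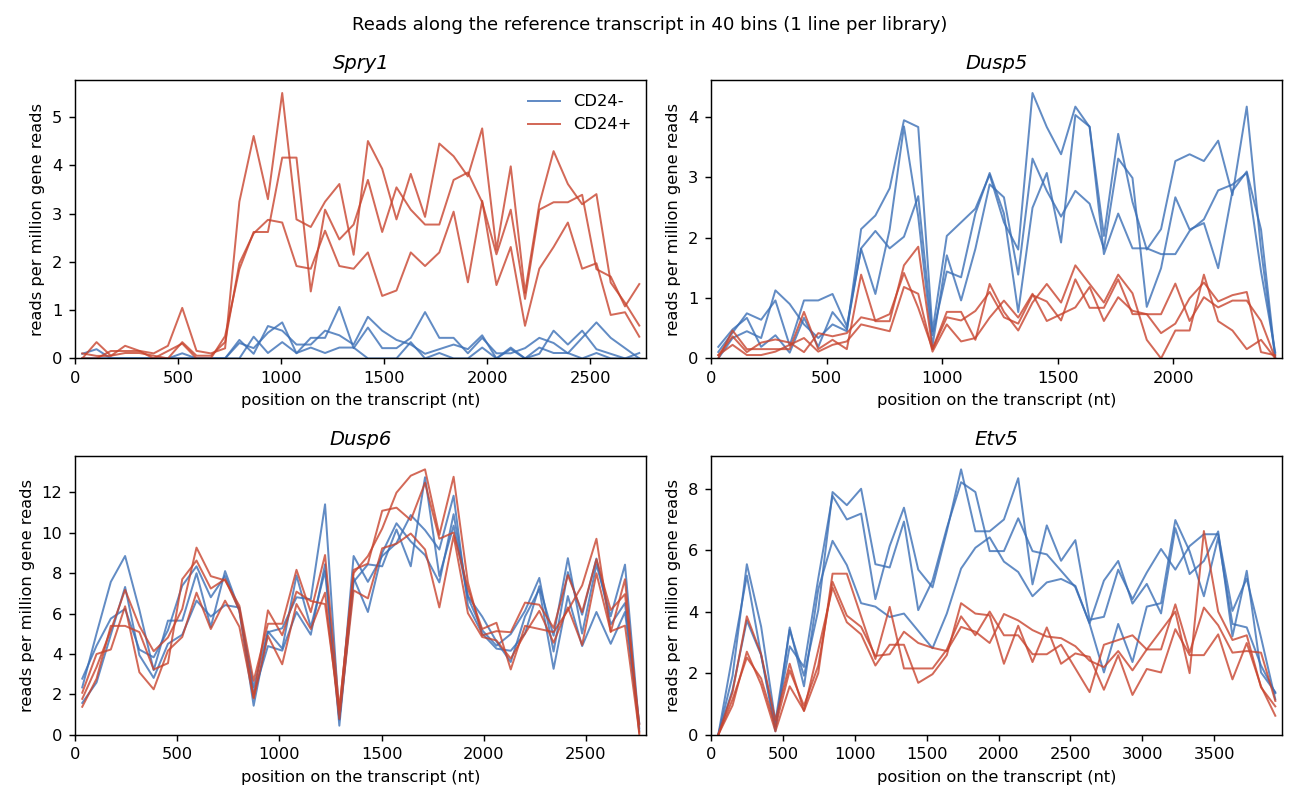
Reads relative to the library's gene reads (y axis, CPM without TMM) in 40 equal bins along the reference transcript (x axis, nt from its 5′ end), 1 line per library, for Spry1, Dusp5, Dusp6 and Etv5. The CD24+ lines of Spry1 run above the CD24- lines over the covered part of the transcript and those of Dusp5 and Etv5 mostly below, while the lines of Dusp6 run together.

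Per kb of transcript Dusp6 had the highest mean level of the 10 genes in both groups, at 91.6 ± 6.05 CPM per kb in CD24- plates and 94.3 ± 10.7 CPM per kb in CD24+ plates. Etv4 came next, at 78.8 ± 5.43 and 74.8 ± 9.26 CPM per kb, and its range overlapped that of Dusp6 in both groups. Spred1 followed, at 53.1 and 69.9 CPM per kb. Its range overlapped that of Dusp4 in CD24- cells and that of Etv4 in CD24+ cells. The genes from Etv5 to Spred2, Spry2 and Dusp5 formed a run of overlapping neighbours in CD24- cells, from 40.8 to 31.0 CPM per kb. The levels of Etv5 are understated by the reads it shares with Gm4798. Its place among the 10 genes is therefore uncertain in both groups, and the sums over all 10 are understated with it. Spry4, at 12.8 CPM per kb, and Spry1, at 2.88 CPM per kb, stood apart below them and from each other. In CD24+ cells Spry1 stood sixth, at 29.4 CPM per kb, within a run of overlapping neighbours from Dusp4 to Etv5. Few reads covered the start of the Spry1 reference transcript, whose whole length was used, so its level per kb and its place may be understated. Dusp5 fell to ninth, at 10.4 CPM per kb, beside Spry4 at 10.2. Over all 10 genes the sum was 432.2 ± 7.50 CPM per kb in CD24- plates and 411.1 ± 33.6 CPM per kb in CD24+ plates, and these sums overlapped.

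The promoters of Spry1 and Dusp5, the genes with the largest increase and the largest decrease, are shown from the RefSeq promoter table for GRCm38.p6, on the plus strand. Spry1 is shown with all 250 bases before its RefSeq start. Dusp5 is shown with the first 214 of these bases, which end where its GENCODE transcript begins, while the RefSeq window runs on to position 53529144. Capitals mark matches to the CArG box, the sequence bound by serum response factor, which works with ETS factors that ERK phosphorylates.
Spry1, chr3:37639697-37639946, promoter: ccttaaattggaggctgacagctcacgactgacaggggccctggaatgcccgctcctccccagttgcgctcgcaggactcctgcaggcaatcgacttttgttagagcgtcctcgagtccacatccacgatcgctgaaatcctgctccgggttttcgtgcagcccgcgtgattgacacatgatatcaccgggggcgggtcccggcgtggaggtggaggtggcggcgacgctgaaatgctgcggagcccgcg
Dusp5, chr19:53528895-53529108, promoter: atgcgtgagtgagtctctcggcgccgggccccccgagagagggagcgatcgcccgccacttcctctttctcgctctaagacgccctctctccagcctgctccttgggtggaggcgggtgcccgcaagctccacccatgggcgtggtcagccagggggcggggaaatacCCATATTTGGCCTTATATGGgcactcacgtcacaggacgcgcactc

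The table of promoters held 7 of the 10 genes, Etv5 with 2 start sites. Dusp5 had 2 CArG boxes side by side, beginning 82 and 72 bases upstream of its RefSeq start, which lies beyond the end of the printed stretch, and no other promoter of the 7 genes had a match. This motif was searched after the Dusp5 sequence had been read, and 1.47% of the 32851 promoters in the table hold it in the same window. None of the promoters held the letters CCGGAA (1 form of an ETS site), TGACGTCA (CRE), TGANTCA (AP-1) or CACGTG (E-box) on either strand. This refers to the 250 bases before the start, where 12%, 1.55%, 6.75% and 6.02% of all promoters held them, respectively. Only these exact letters were searched. Other forms of the sites, ETS sites included, were not searched and may be present.

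Other inhibitors of the pathway and relatives of the 10 genes were called in both directions. Of 18 tested from a list of 19, 4 were higher (22.2%) and 8 lower (44.4%) in CD24+ cells, beside 23.8% and 22.3% of all genes, with a median log2 fold-change of -0.15. The largest increase was that of Il17rd, which encodes the FGF receptor antagonist Sef, from 5.07 ± 2.17 to 39.7 ± 7.18 CPM (SD, n = 3 each; log2 fold-change 2.97, edgeR adjusted p = 5.288e-06). Dusp1, an inducible nuclear phosphatase of the stress kinases, and Etv1, the remaining PEA3 factor, were higher by 0.70 and 0.45 on the log2 scale. Dusp2, a nuclear phosphatase related to Dusp4 and Dusp5, was lower, from 103 ± 11.6 to 13.2 ± 1.67 CPM (log2 fold-change -2.96, edgeR adjusted p = 7.856e-08). Dusp9 (-0.68) and Spred3 (-0.59) were lower as well. The gene of neurofibromin, Nf1, had a log2 fold-change of -0.18 and did not pass the test (edgeR adjusted p = 0.09439).

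Of 31 tested kinases, adaptors and other genes of the cascade, from 32 listed, 8 were higher (25.8%) and 9 lower (29.0%), shares near the 23.8% and 22.3% of all genes, with a median log2 fold-change of -0.10. Mapk3, the gene of ERK1, was higher (0.50, edgeR adjusted p = 0.01542), a call that was lost without CD24+ replicate 3 (0.45) and with distinct sequences (0.26). In contrast, Map2k1, the gene of MEK1, gave -0.02 and was not called. Ksr1, a scaffold for RAF and MEK, and the adaptor Shc1 were higher by 0.77 and 0.72 on the log2 scale. The adaptor Gab2 (-1.10), the ERK-activated kinase Rps6ka1 (-0.96) and Araf, a RAF kinase (-0.93), were lower.

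Of 23 tested genes, from 24 listed, that ERK is known to induce besides the feedback genes, 11 were lower and 3 higher in CD24+ cells, where 22.3% and 23.8% of all genes were. Their median log2 fold-change was -0.32. The immediate early gene Egr3 went from 18.4 ± 1.46 to 2.91 ± 0.91 CPM (SD, n = 3 each; log2 fold-change -2.62, edgeR adjusted p = 3.897e-06) and the ephrin receptor gene Epha4 from 24.8 ± 2.10 to 7.46 ± 0.062 CPM. Myc was lower too, from 897.3 ± 116.1 to 251.2 ± 50.9 CPM (log2 fold-change -1.83), and reads of the line's transgene and of the gene itself were not separated. The ligand gene Ereg was higher, from 9.92 ± 1.38 to 91.4 ± 6.77 CPM (log2 fold-change 3.20, edgeR adjusted p = 3.519e-08), and Phlda1 and Ccnd1 were higher by 0.66 and 0.44. The call of Ccnd1 was lost where each distinct sequence counted once (0.11).

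Upstream of the cascade, 7 of 18 listed genes of FGF receptors, ligands and cofactors had enough reads to be tested. Of these, Fgfr2 and Fgfbp1 met the filter on low counts only with their CD24+ libraries, so their direction was bound to that filter and no count over the list is given. Fgfr2 had 0.936 ± 0.104 CPM in CD24- plates and 13.8 ± 1.31 CPM in CD24+ plates. Flrt2, a membrane protein that binds FGF receptors, went from 2.25 ± 0.13 to 31.1 ± 1.44 CPM, and the ligand gene Fgf7 from 3.06 ± 0.74 to 17.0 ± 5.01 CPM. Of 10 tested genes of other receptor kinases, 4 were higher and 5 lower, beside 23.8% and 22.3% of all genes. Axl, with 79.0 ± 6.22 and 668.9 ± 21.9 CPM, Pdgfrb (3.79) and the collagen receptor gene Ddr2 (1.94 on the log2 scale) were among the former, and Insr (-0.78), Met (-0.63) and Ddr1 (-0.48) among the latter. Summed mesenchymal markers lay between 3609 and 4465 CPM in CD24- cells and between 4279 and 5082 CPM in CD24+ cells. The sum was mostly Vim, which was not called (edgeR adjusted p = 0.2482). Among the 6 markers tested, Pdgfra and Pdgfrb were called higher, as 23.8% of all genes were. Col3a1 was called higher too and went from 10.8 to 142.2 CPM. Col1a1 and Col1a2, at 0.97 and 0.57 CPM in CD24- cells, met the filter on low counts only with CD24+ libraries. Their direction was bound to that filter, so no count over these markers is given. The part of these markers in the values above was not tested.

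**Figure D5:**
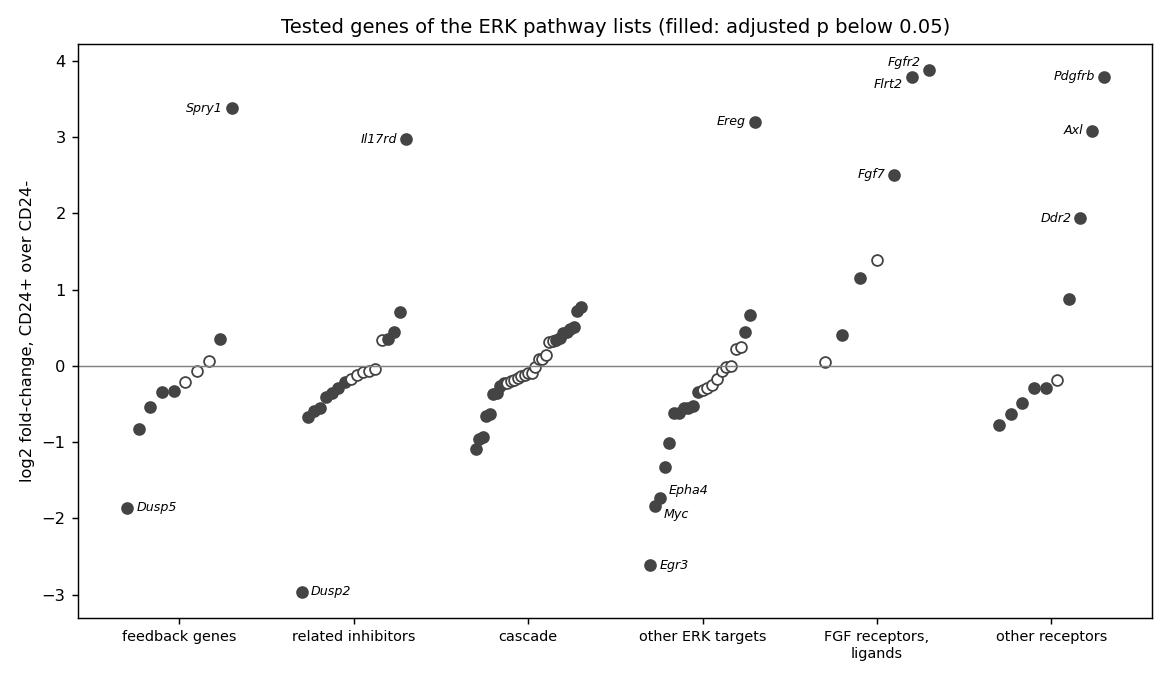
Log2 fold-change of CD24+ over CD24- cells (y axis) for each tested gene of the 10 feedback genes and of the other lists of the ERK pathway, ordered by value within a list, with filled circles for genes at an edgeR adjusted p below 0.05. Cascade genes stay between Gab2 (-1.10) and Ksr1 (0.77), and the genes beyond 3 are Spry1, Ereg, Flrt2, Fgfr2, Pdgfrb and Axl.

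The genes whose log2 CPM followed that of Dusp6 most closely over the 6 libraries were Stat2 (Pearson r = 0.985), Klhl30 (0.979) and Slc2a8 (0.974), taken as the 3 highest values among genes with a mean of at least 10 CPM. The libraries share depth and group, and such values over 6 points are a description only. None of the 3 genes passed the test between the groups, with log2 fold-changes of 0.09, 0.47 and 0.02.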

How the data were processed

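Per the labels and the study's methods, total RNA of 3 plates per group was made into TruSeq v2 libraries and sequenced on an Illumina HiSeq. The authors trimmed reads to 47 nt, collapsed identical sequences, mapped them to the mouse genome (mm9 in the submitters' processing notes) by exact match, and deposited a raw count, a location and a single annotation for each sequence. Which mapper and which annotation were used is not given in the sources used here. Exact matching leaves out reads over exon junctions and variants, and the counts carry no strand.

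The deposited counts were summed per symbol. Reads of repeats, of small or ribosomal RNA and without annotation were left out of totals and tests, so that 71.8% to 74.3% of a library remained. Genes passing filterByExpr were tested with edgeR 4.0.16 in R 4.3.3 (TMM, quasi-likelihood F test, Benjamini-Hochberg adjustment over all 11125 genes, threshold 0.05). CPM are TMM-scaled, and a standard error is the log2 fold-change divided by the root of F. Reads were matched by exact sequence to GENCODE M21 transcripts (GRCm38). The 47-nt read positions are those of the files, and no coordinate was converted. Hras and Lamtor3 were found under older symbols. Replicates of a group differed by more than counting noise (chi-square per degree of freedom 1.71 to 15.2), so none was merged. Same-numbered plates did not deviate together (correlations 0.013, -0.27 and -0.32).

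Genes named are the 10 feedback genes, Cd24a, the 3 largest increases and decreases among called genes of each other ERK list (mean CPM 1 or more), and the 3 genes most like Dusp6. Nf1, Map2k1, Fgfbp1 and the markers were named outside that rule, after their values were seen. The feedback genes and the lists were chosen with earlier results of these data known. The scripts were tested on simulated data. Alternatives were DESeq2 1.42.0, 2 other normalizations, 2 other filters, distinct sequences, quantile-normalized CPM plus 10 tested with limma 3.58.1, a replicate block, thinning, a fold-change minimum and each library left out, and, added after seeing the data, 3 read classes.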

Additional observations from a re-analysis of the deposited data

How the results depend on the processing

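Over all alternatives, 694 of 716 recomputed values had the direction and the call of the values given above, or, as counts, were within 1.5 times of them. Of the 180 fold-changes of feedback genes 169 did. The calls of Spry1, Dusp5, Dusp4, Spry2 and Etv5 held under each of them except the fold-change minimum below, which only Spry1 and Dusp5 met. DESeq2 called 4955 genes and left the 2 higher and 5 lower feedback genes, and the filter at 1 CPM in 3 libraries kept the same genes as the main one. Quantile-normalized CPM plus 10, which shrinks changes of low genes by construction, gave log2 fold-changes of 2.36 for Spry1 and -1.50 for Dusp5. Among the other named genes that were called, it moved the log2 fold-change by over 1.5 times for Il17rd (1.66), Ksr1 (0.36), Gab2 (-0.50), Egr3 (-1.22), Epha4 (-1.07), Fgfr2 (1.04), Flrt2 (1.68), Fgf7 (0.94) and Pdgfrb (2.31). Without TMM scaling Etv4 passed (-0.24). Counting each distinct sequence once gave 3697 called genes, 1550 of them lower, 1 feedback gene higher, 20 lower genes in the other ERK lists, and log2 fold-changes of -0.20 for Spry4 and 0.23 for Spred1, neither called. Mapk3 (0.26) and Ccnd1 (0.11) also lost their calls there, and Dusp1 (0.39), Shc1 (0.47), Phlda1 (0.44), Myc (-1.10) and Axl (2.05) kept theirs at a log2 fold-change over 1.5 times smaller. With reads that match no transcript, Dusp6 (1.19) and Etv4 (-0.93) passed and Spry4 (-0.13) and Spred1 (0.60) did not. A log2 fold-change of at least 1 left 1600 called genes, 1 feedback gene higher and 1 lower, and 9 higher and 7 lower genes in the other ERK lists, beside 24 and 33 without it. Counts over the other lists include the FGF list with Fgfr2, whose direction the filter bound, and are not read as a result (of all genes 23.8% were higher and 22.3% lower). The cause of these differences was not tested, except that the last follows from the stricter rule.

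Leaving out each library in turn gave 4069 to 5358 called genes, and 2 higher and 4 to 6 lower feedback genes. The log2 fold-change ran from -0.39 to -0.26 for Spry4, from -0.28 to -0.15 for Etv4, called without CD24+ replicate 1, and from -0.023 to 0.14 for Dusp6, reversed without CD24+ replicate 3. Mapk3 lost its call without CD24+ replicate 3 (0.45) and gave 0.34 without CD24- replicate 3. With a replicate block edgeR called 4493 genes, with 2 higher and 5 lower feedback genes, and it changed no call of a feedback gene. Whether the replicate numbers pair the plates is not stated in the labels. Thinned to the shallowest library, Spry1 had a log2 fold-change of 3.41.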
